A study of Solanum tuberosum with 6 samples.

Results

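How the salt response of potato leaves changed between 1 and 3 days was measured on 9030 cDNA clones, of 10499 in the table. A clone was compared when it had at least 2 values on each day, and the 3 ratios of day 3 were set against the 3 ratios of day 1. Plants of Solanum tuberosum cultivar PS3 had been raised from tissue culture and acclimatized in pots for 2 months. Salt exposure began with 75 mL of 150 mM NaCl given as water to the plants, and control plants got tap water in equal volume. Leaves 1 and 2 were harvested from one set of plants at 1 day and from another set at 3 days. On each of 6 two-colour arrays, salt RNA was set against control RNA of the same day, with 3 biological replicates per day. Salt RNA was labelled with Cy3 on replicates 1 and 3 of both days and with Cy5 on replicate 2. All 6 arrays thus share the cultivar and the salt dose, and only the day differs between the groups.

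Salt in the soil first makes water harder to take up and later loads the leaf with sodium and chloride. Leaves commonly respond at first with lowered transcripts of photosynthesis and growth and with raised transcripts of stress protection, and part of this response fades as the plant adjusts. Potato leaves also make defence compounds, among them steroidal glycoalkaloids, which are built from sterol precursors and finished by sugar transferases, and proteinase inhibitors, which are controlled by wound signals such as systemin and jasmonate.

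Each value below is a log2 ratio of salt over control, so that 1 stands for a 2-fold difference, and a difference between days is the day 3 ratio minus the day 1 ratio. The direction, salt over control, is likely and not stated: the labels give control as the first channel and name it first. With ratios of control over salt, all signs below would turn. Base 2 of the logarithm was taken and is not stated either. Arrays of opposite dye orientation correlated positively within a day (r across clones from 0.475 to 0.639 over the 4 such pairs of arrays). A dye effect that is the same on both days cancels in the difference, because both days used the same orientations. The arrays measured 7867 to 10381 clones each, and 7632 clones had values on all 6 arrays. Replicate 1 of day 3 stood apart from the day 1 arrays, with r between -0.086 and 0.031, while replicates 2 and 3 of day 3 had r between 0.081 and 0.486 with them. Counts are therefore also given without that array. The tables used here hold ratios only, so the tissue could not be checked through the level of leaf markers. With 3 arrays a day, it is their number that sets the precision.

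Between day 1 and day 3 the salt response changed in 1011 of the 9030 clones (11.2%), as limma called it at an adjusted p under 0.05. The day 3 ratio exceeded the day 1 ratio in 560 of them (6.2%) and lay under it in 451 (4.99%). The difference exceeded 1 in size for 306 of the higher and 198 of the lower clones. At an unadjusted p under 0.05 there were 2344 clones. The day 1 and day 3 values did not overlap in 972 of the called clones. Among all tested clones, 15.5% had every day 3 value above every day 1 value and 14.5% had every day 3 value below. The median difference of all tested clones was -0.03.

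The number of calls depended on which arrays were used. Omitting replicate 1, 2 or 3 of day 1 gave 128, 258 and 262 clones higher, and 171, 178 and 227 lower. With replicate 2 of day 3 omitted there were 224 and 168. Only replicate 2 had salt RNA in Cy5, so once it is omitted on either day the dye term takes up the other replicate 2 array. The difference then rests on replicates 1 and 3 of both days. A call given below as lost without replicate 2 of a day was therefore lost without both replicate 2 arrays. The counts were no smaller without the array that stood apart: without replicate 1 of day 3, 628 clones were higher and 524 lower, of 7709 tested, and without replicate 3 of that day 683 and 447. Of the 1011 called differences, between 291 and 945 kept their call and direction across these 6 fits, and none of those tested changed its sign. Among the called clones named under the fixed rule, 163 of the 164 tested without replicate 1 of day 3 kept their call, against 87 of 165 without replicate 1 of day 1.

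**Figure D1:**
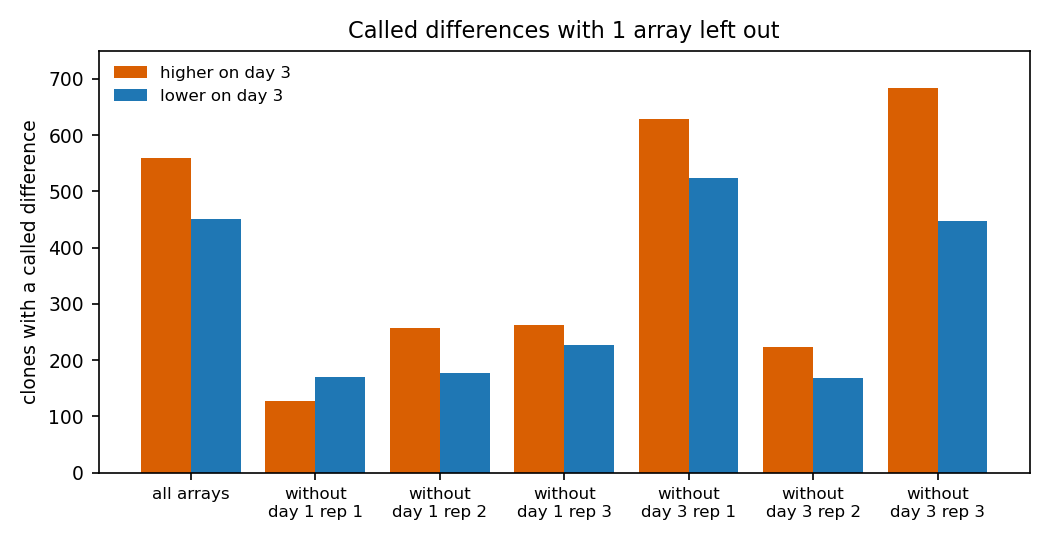
Number of clones with a called difference, higher (orange) or lower (blue) on day 3, with all arrays and with each array left out in turn. Leaving out either replicate 2 array also takes the other out of the difference. The counts of 560 and 451 drop to 128 and 171 without replicate 1 of day 1 and stand at 628 and 524 without replicate 1 of day 3.

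The largest class of change with all arrays was a return towards the control level. A clone was called recovered when it differed from control on day 1, was no longer called on day 3 and lay nearer to 0 there, and 681 of the called differences (67.4%) were of this kind. Their share was 38.3% of 1250 calls with a replicate block, 49.9% of 2247 with array quality weights, 50.2% of 833 after quantile normalization and 53.7% of 825 after scaling to equal spread, and lay between 56.7% and 71.3% under the other settings. They split into 422 that had been lowered and came up (4.67% of tested clones) and 259 that had been raised and came down (2.87%). The clones that came up had array medians of -1.05, -1.05 and -1.08 on day 1 and of 0.54, -0.09 and -0.17 on day 3. Late onset, with no call on day 1 and a call on day 3, held 156 clones, of which 124 fell (1.37%) and 32 rose (0.354%). Reversal, with calls of opposite sign on the days, held 38 clones, 23 going up (0.255%) and 15 going down (0.166%). In 37 of these 38 clones, every array of one day had the opposite sign to every array of the other. A response grew further in the same direction in 26 clones, 22 of them falling (0.244%) and 4 rising (0.0443%), and weakened but was still called in 22, of which 16 went up (0.177%) and 6 down (0.0664%). The remaining 88 called differences belonged to no class. Without replicate 1 of day 3 the counts were 716 for recovery, 162 for late onset and 61 for reversal. Without replicate 1 of day 1 there were 183, 73 and 21, without replicate 2 of day 1 247, 106 and 10, and without replicate 3 of day 1 314, 103 and 22. Omitting replicate 2 of day 3 left 263, 54 and 8, and omitting replicate 3 of day 3 gave 756, 136 and 58.

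**Figure D2:**
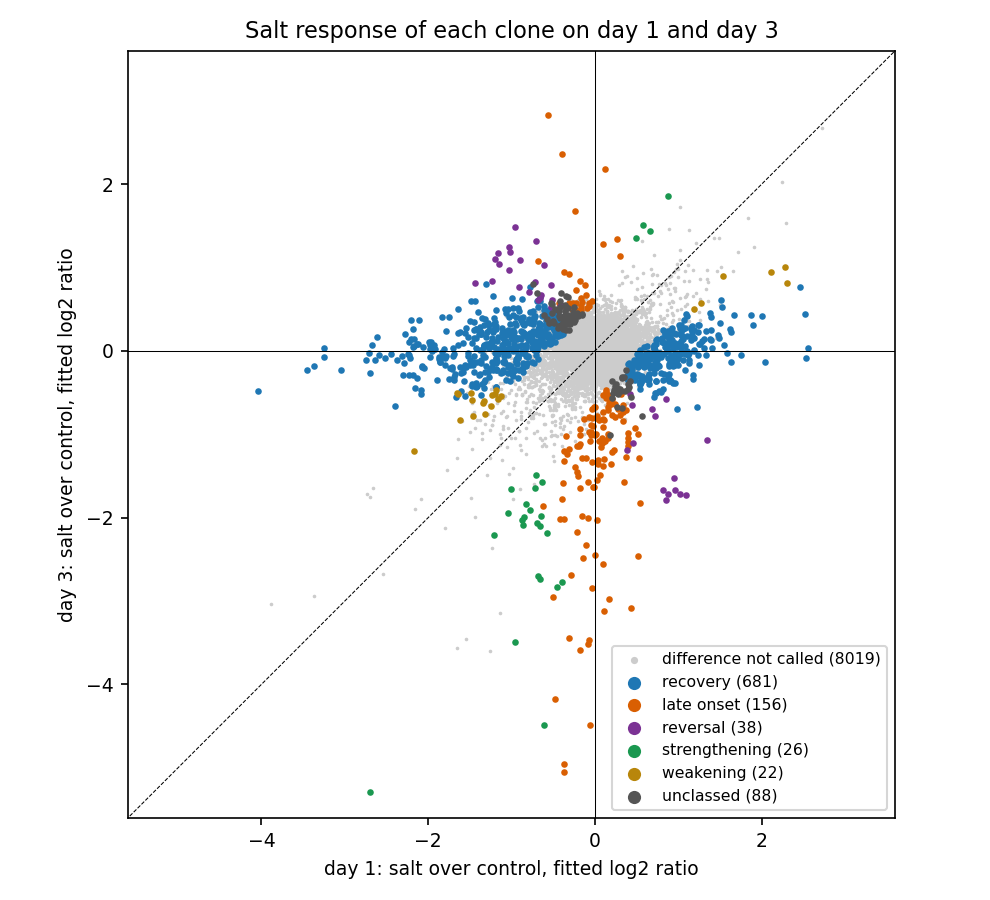
Fitted log2 ratio of salt over control on day 1 (horizontal axis) and day 3 (vertical axis), with 1 point for each of the 9030 clones and colours for the class of a called difference. The 681 recovered clones lie along the horizontal axis at a day 3 ratio near 0, and the 124 late falls run down the vertical axis from a day 1 ratio near 0.

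Seen from day 1, 1017 clones were lower than control on that day (11.3%) and 809 higher (8.96%), against 400 lower (4.43%) and 174 higher (1.93%) on day 3. Of the 1017 lowered clones, 177 were still lowered on day 3, 23 had turned to raised, 425 were no longer called with a called difference, and 392 were no longer called without one. The 809 raised clones gave 92, 15, 260 and 442 in the same order. For the 442 and the 392 clones, neither a return nor a lasting response was shown.

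Of the gene lists, the 2 of carbon fixation had the lowest medians on day 1 and the largest median rises. All 5 clones annotated as carbonic anhydrase, which hydrates carbon dioxide near the site of its fixation, rose between the days, by 2.82 to 3.28. Of 29 clones of Rubisco, the carbon-fixing enzyme, and its activase, 26 rose (89.7%, against 6.2% of all clones) and none fell. Their median difference was 2.05, against -0.03 for all clones. In the carbonic anhydrase clone STMCR16 the 3 ratios of day 1 were -2.86, -3.48 and -3.16, and those of day 3 were 0.73, -0.35 and -0.33. The days did not overlap, and the difference was 3.18 (SE 0.26, adjusted p = 0.000519). A Rubisco small subunit clone (STMCP20) had -3.08, -2.54 and -2.44 on day 1 and 0.28, -0.53 and -0.48 on day 3. It moved by 2.44 (SE 0.27, adjusted p = 0.00183), and 18 of the 20 clones with this annotation rose, by up to 2.74. These clones may stand for one gene family whose members hybridize to each other, so 20 clones need not be 20 genes. For Rubisco activase, which keeps Rubisco in its active form, the clone STMDB44 had -1.63, -2.41 and -2.32 on day 1 and 0.88, 0.14 and -0.07 on day 3, again without overlap. All 6 clones of this annotation rose, and for STMDB44 the difference was 2.44 (SE 0.28, adjusted p = 0.00198). Because whole leaves were sampled, fewer cells of a type and less RNA per cell cannot be told apart in these ratios.

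In the carbon fixation clones the 3 arrays of day 3 differed in whether the return passed the control level. On the day 1 arrays the Rubisco list had medians of -2.09, -1.73 and -1.82, and on the day 3 arrays 1.02, -0.25 and -0.23. Carbonic anhydrase gave 0.91, -0.52 and -0.46 on day 3. Replicate 1, the array that stood apart, was thus above control and the other two were slightly below it. Without it, all 5 carbonic anhydrase clones and 26 of 29 Rubisco clones still passed, with median differences of 2.76 and 1.57. Its part in the size of the return was not tested.

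The Calvin cycle and photorespiration list shared this pattern more weakly. Of its 24 clones 8 rose (33.3%, against 6.2% of all clones) and none fell. The median difference was 0.78, and 12 of 23 rose without replicate 1 of day 3. The chloroplast glyceraldehyde-3-phosphate dehydrogenase subunit A (STMCM20), which reduces fixed carbon to sugar phosphate, went from -2.01, -2.25 and -2.20 to 1.05, -0.45 and -0.52. Replicate 1 of day 3 was above control and the others below it, and the difference was 2.18 (SE 0.36, adjusted p = 0.00813). Serine hydroxymethyltransferase (STMCJ75) and the H-protein of glycine decarboxylase (STMIY23), both of photorespiration, rose by 1.18 and 1.39. Fructose-1,6-bisphosphatase (STMCF47) rose by 1.46. The call of STMCM20 was lost without replicate 1 of day 1 (adjusted p = 0.0662). STMCJ75 missed the threshold without replicate 1 or 3 of day 1 (adjusted p = 0.0538 to 0.0785). For STMIY23 and STMCF47, no call was made without replicate 1 or 3 of day 1 or replicate 2 of day 3 (adjusted p = 0.0504 to 0.174).

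Light capture returned only in part. Of 24 light-harvesting clones 11 rose (45.8%, against 6.2% of all clones) and none fell, with a median difference of 0.57. The list's median was -1.10 on day 1 and -0.46 on day 3. On day 3, 9 of the 24 were still called lower than control. The light-harvesting protein CP24 (STMIY56), which links antenna proteins to photosystem II, had -2.19, -2.08 and -2.19 on day 1 and -0.11, -0.52 and -0.69 on day 3. All 3 values of day 3 were above those of day 1 and below 0, with a difference of 1.71 (SE 0.19, adjusted p = 0.00183). CP29 (STMCC66), another minor antenna protein, rose by 1.40 to a day 3 ratio of -0.27. Here replicate 1 of day 3 lay beside the other arrays, with list medians on day 3 of -0.57, -0.44 and -0.49. After scaling the arrays to equal spread or by quantiles, the median difference of the list was 0.32 and 0.31.

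Photosystem and electron transport clones rose in 23 of 49 (46.9%, against 6.2% of all clones), and none fell. Oxygen-evolving enhancer protein 1 (STMCP64), which stabilizes the water-splitting centre of photosystem II, had -1.73, -1.66 and -1.69 on day 1 and -0.02, -0.04 and -0.07 on day 3. Each array of day 3 lay very close to control, and the difference was 1.65 (SE 0.14, adjusted p = 0.000662). Oxygen-evolving enhancer protein 2 (STMDR17) rose by 1.36 and psbY (STMES83) by 1.33. The list's median difference was 0.69, and 0.57 without replicate 1 of day 3, when 25 of 48 clones passed.

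Pigment synthesis came up as well. In the chlorophyll and carotenoid list 12 of 26 clones rose (46.2%, against 6.2% of all clones) and 1 fell (3.85%, against 4.99%). The median difference was 0.40, and 0.62 without replicate 1 of day 3. Protochlorophyllide oxidoreductase (STMDP32), the light-dependent step to chlorophyll, had -1.37, -1.57 and -1.59 on day 1 and 0.69, 0.07 and 0.19 on day 3. All day 3 values were above 0 and all day 1 values below it, and the difference was 1.82 (SE 0.18, adjusted p = 0.00132). It counted as recovery because the day 3 ratio of 0.28 was not called. Glutamate-1-semialdehyde aminomutase (STMCK82) and the chlD subunit of magnesium chelatase (STMDF10), both earlier in the pathway, rose by 1.75 and 1.17. The magnesium-protoporphyrin ester clone STMJD64 rose by 1.10.

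Proteins of the plastid ribosome, which translates chloroplast-encoded photosynthesis genes, rose in 20 of 31 clones (64.5%, against 6.2% of all clones), and none fell. The median difference was 1.21, and 0.83 without replicate 1 of day 3, when 21 of 30 rose. Subunit L24 (STMJN60) went from -1.29, -1.37 and -1.38 to 0.89, 0.05 and 0.02. Replicates 2 and 3 of day 3 lay at control and replicate 1 above it, and the difference was 1.67 (SE 0.23, adjusted p = 0.00471). Subunit L21 (STMEG09) rose by 1.58 and a clone similar to 30S subunit S10 (STMCU02) by 1.77. By contrast, 16 of 140 ribosomal protein clones without a plastid annotation rose (11.4%, against 6.2% of all clones) and 1 fell, with a median difference of 0.32, and of 0.17 without replicate 1 of day 3. The largest rise of these was 60S protein L37 (STMIC02), which went from -2.43, -2.34 and -2.48 to 0.71, -0.33 and -0.42. A further L37 clone, STMDM96, did not pass, at 0.535. The one fall was an L13a-like clone (STMIP34), at -1.52 (SE 0.22, adjusted p = 0.00507). The call of STMCU02 was lost without replicate 1 of day 1 (adjusted p = 0.0546).

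**Figure D3:**
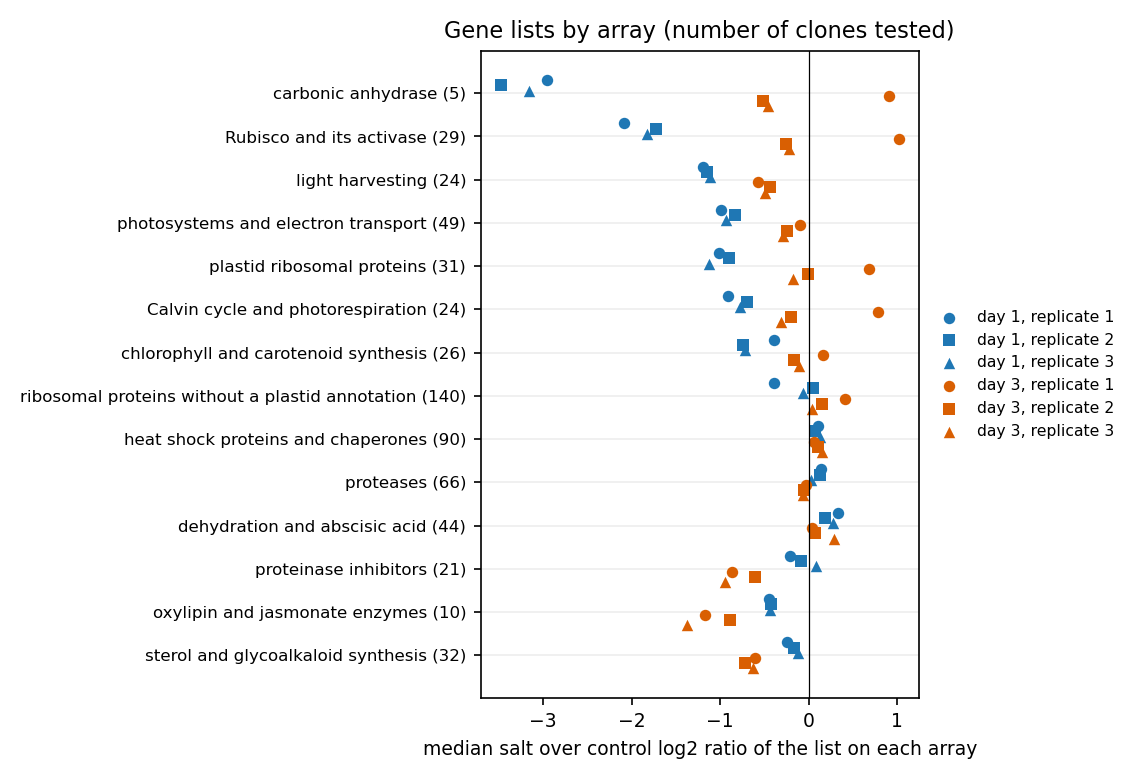
Median log2 ratio of salt over control of each gene list on each of the 6 arrays, with day 1 in blue and day 3 in orange and the number of tested clones in brackets. Photosynthesis lists moved from negative day 1 medians towards 0, the Rubisco list from about -2.09 to between -0.25 and 1.02. The lower 3 lists had lower medians on day 3 than on day 1, all of them below 0.

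Among peroxidases and glutathione enzymes, 9 of 57 clones rose (15.8%, against 6.2% of all clones) and 1 fell, with a median difference of 0.08. The list of thioredoxins, peroxiredoxins and glutaredoxins had 4 rises (14.8%) and 2 falls (7.41%, against 4.99% of all clones) in 27 clones. All 4 rises were clones of a single annotation, thioredoxin peroxidase, at 1.46 to 1.73, so they need not be 4 genes. A superoxide dismutase (STMDZ61), which removes superoxide, had -0.95, -0.97 and -1.12 on day 1 and 0.81, 0.19 and 0.28 on day 3. All day 3 values were above 0, and the difference was 1.44 (SE 0.19, adjusted p = 0.00431). Dehydroascorbate reductase (STMCU36), which restores ascorbate, rose by 1.70, and monodehydroascorbate reductase (STMES85) by 0.91. A thioredoxin peroxidase clone (STMEP19) rose by 1.46, whereas chloroplast thioredoxin M-type 3 (STMIC95) fell late, with a difference of -0.89 (SE 0.16, adjusted p = 0.01). A chaperonin 21 clone (STMEL85), a cofactor of chloroplast protein folding, rose by 1.88. STMES85 missed the threshold without replicate 1, 2 or 3 of day 1 or replicate 2 of day 3 (adjusted p = 0.0745 to 0.103). For STMEP19, no call was made without replicate 1 of day 1 (adjusted p = 0.089). The call of STMIC95 was lost without replicate 2 of day 1 or replicate 2 of day 3 (adjusted p = 0.0757 to 0.0764).

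Upward returns also included single clones of other lists. A GAST1-like clone (STMJC16), from a gibberellin-regulated family of small secreted peptides, had the largest rise among the 556 called clones annotated to a gene. Its ratios were -4.88, -3.82 and -3.73 on day 1 and -1.29, -0.09 and -0.38 on day 3, all below 0 but without overlap, and the difference was 3.56 (SE 0.33, adjusted p = 0.000951). The 14-3-3-like protein 16R (STMJM89), a phosphoprotein-binding regulator, went from -1.97, -2.43 and -2.20 to 0.69, 0.52 and -0.06. It rose by 2.58 (SE 0.23, adjusted p = 0.000746). Alpha-expansin (STMDH16), which loosens cell walls, went from -1.56, -1.90 and -1.96 to 0.21, 0.04 and -0.14, and expansin 11 (STMGB59) rose by 1.57. The wider cell wall list held 5 rises and 3 falls in 73 clones (6.85% and 4.11%), shares near the 6.2% and 4.99% of all clones. The list of auxin, gibberellin and growth hormones held 1 rise and 2 falls in 46 (2.17% and 4.35%). Trigger factor-like protein (STMCG40), a chaperone of new polypeptides, and a putative CAAX prenyl protease (STMIU20) rose by 2.34 and 2.32. STMGB59 missed the threshold without replicate 1 or 2 of day 1 or replicate 2 of day 3 (adjusted p = 0.0522 to 0.0729). For STMCG40, no call was made without replicate 1 of day 1 (adjusted p = 0.0677).

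The opposite return, from raised to control level, included several stress-related clones. A class 1 chitinase (STMHO72), an enzyme that degrades fungal cell walls, had 2.89, 2.06 and 2.67 on day 1 and -1.54, 0.68 and 0.87 on day 3. Replicate 1 of day 3 was below 0 and the others above it, and the difference of -2.53 (SE 0.58, adjusted p = 0.0277) became -1.68 without that array. The other clone of this annotation, STMJI49, had a day 1 ratio of -1.22 and did not pass, at 0.39. In the chitinase and glucanase list, 4 clones were called lower on day 1 and 1 higher. Between the days 5 of its 20 clones fell (25%, against 4.99% of all clones) and none rose. Without replicate 1 of day 3, 3 of 15 fell and 2 rose. VDAC3.1 (STMGI75), a channel of the outer mitochondrial membrane, went from 1.90, 2.44 and 3.18 to -0.46, 0.64 and 1.09. It stayed above 0 on replicates 2 and 3 of day 3, and the difference was -2.08 (SE 0.43, adjusted p = 0.0195). The call of STMHO72 was lost without replicate 1 or 3 of day 1 (adjusted p = 0.0677 to 0.146). STMGI75 missed the threshold without replicate 1 or 2 of day 1 or replicate 2 of day 3 (adjusted p = 0.0519 to 0.0584). Steadier was the heat shock cognate 70 kDa protein 1 (STMGV91), a cytosolic chaperone, with 2.01, 1.27 and 1.66 on day 1 and -0.05, -0.06 and 0.19 on day 3. It lay near control on every array of day 3, with a difference of -1.62 (SE 0.18, adjusted p = 0.00186). A putative invertase inhibitor (STMJC15), from a family that restrains sucrose cleavage, had 1.65, 2.04 and 1.87 on day 1 and 0.09, 0.44 and 0.27 on day 3. All 6 values were above 0 and the days did not overlap, with a difference of -1.59 (SE 0.15, adjusted p = 0.00115).

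Heat shock proteins and chaperones moved both ways. Of 90 clones 13 rose (14.4%, against 6.2% of all clones) and 14 fell (15.6%, against 4.99%). The median difference of -0.08 was 0.004 without replicate 1 of day 3. Proteases moved mostly down, with 14 of 66 clones lower (21.2%, against 4.99% of all clones) and 1 higher. Of 6 clones named cysteine protease, 5 fell, and in STMCN29 the ratios were 0.78, 1.17 and 1.07 on day 1 and -0.28, 0.05 and -0.24 on day 3. Its values crossed from raised to near control, with a difference of -1.16 (SE 0.15, adjusted p = 0.00413). Vacuolar processing enzyme 3 (STMCX65), a protease that matures vacuolar proteins, fell by 1.06, going from 0.58, 0.91 and 0.91 to -0.08, -0.39 and -0.32. In the ubiquitin and proteasome list 10 of 132 clones fell (7.58%, a share nearer to the 4.99% of all clones) and 1 rose. For STMCX65, no call was made without replicate 2 of day 1 or replicate 2 of day 3 (adjusted p = 0.0566 to 0.0584).

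Of 44 clones of dehydration and abscisic acid response, 6 fell between the days (13.6%, against 4.99% of all clones) and 1 rose. The median difference was -0.12. A low temperature and salt responsive protein (STMEV23), a small membrane protein, had 0.67, 1.14 and 0.98 on day 1 and -0.50, -0.39 and -0.35 on day 3. All day 1 values were above 0 and all day 3 values below it, with a difference of -1.34 (SE 0.16, adjusted p = 0.00281). A protein phosphatase 2C (STMCY12), from the family that restrains abscisic acid signalling, went from 0.93 to -0.19 in the fit, and an osmotin-like protein (STMIT44), of a family raised by osmotic stress, from 1.10 to 0.42. Against this direction, the RD22-like clone STMCR71 rose by 1.11 (SE 0.22, adjusted p = 0.0174), while the 7 other clones with its annotation did not pass. Trehalose 6-phosphate synthase (STMGI30), which makes the precursor of the sugar trehalose, fell by 1.32, from 0.94 to -0.38. Of the other clones of this enzyme, named after their values were seen, STMGW40 fell by 0.77 and STMGI78 and STMIL25 rose by 1.08 and 1.11. The call of STMCY12 was lost without replicate 1 of day 1 (adjusted p = 0.0509). STMIT44 missed the threshold without replicate 1, 2 or 3 of day 1 or replicate 2 of day 3 (adjusted p = 0.073 to 0.165). For STMCR71, no call was made without replicate 1 or 3 of day 1 or replicate 2 of day 3 (adjusted p = 0.0506 to 0.0927).

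In the WRKY, NAC and MYB list 3 of 35 clones fell (8.57%, against 4.99% of all clones) and 1 rose, and in the list of homeobox, bZIP, bHLH, MADS and zinc finger factors 4 of 79 fell (5.06%) and 1 rose. A NAC domain protein (STMFB46), a transcription factor, had 1.21, 1.28 and 1.17 on day 1 and -0.16, 0.23 and 0.09 on day 3. The later values lay on both sides of 0, and the difference was -1.17 (SE 0.15, adjusted p = 0.00396). A homeobox clone (STMEF08) had 1.61, 1.47 and 1.57 on day 1 and -0.08, 0.11 and 0.21 on day 3, a difference of -1.47 (SE 0.16, adjusted p = 0.0017). The one riser of the first list was WRKY2 (STMIW46), at 1.88 (SE 0.35, adjusted p = 0.0131). Linker histone H1 (STMGF62) went from 1.77, 1.92 and 1.79 to -0.16, 0.71 and 0.60, and histone H3.3 (STMEG21) fell by 1.05. In their list of histones and cell division 5 of 52 clones fell (9.62%, against 4.99% of all clones) and none rose. The ethylene-related transcription factor EIL2 (STMGQ53) fell by 0.86 and was the single call among 18 ethylene clones (5.56%, against 4.99% of all clones). Phenylalanine ammonia-lyase (STMGT03), the entry enzyme of phenylpropanoid synthesis, fell by 1.28 from 1.24. The call of STMIW46 and STMGF62 was lost without replicate 1 of day 1 (adjusted p = 0.0509 to 0.0872). STMEG21, STMGQ53 and STMGT03 missed the threshold without replicate 2 of day 1 or replicate 2 of day 3 (adjusted p = 0.0539 to 0.0742).

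Late onset looked different from recovery in direction, since falls outnumbered rises 124 to 32. In size the classes were closer, with a median difference of -1.16 for late falls, 1.145 for upward recoveries and -0.89 for downward recoveries. In the list of sterol and glycoalkaloid synthesis 11 of 32 clones fell between the days (34.4%, against 4.99% of all clones) and none rose. This list was put together after values had been seen, so its count is a description. The narrower list of sterols and mevalonate, without the glycoalkaloid enzyme and several late sterol steps, had 5 falls (18.5%) and no rise in 27 clones. The median difference of the wider list was -0.32, and the array medians were -0.24, -0.17 and -0.12 on day 1 and -0.61, -0.72 and -0.63 on day 3. Without replicate 1 of day 3, again 11 clones fell, of 29.

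DIMINUTO (STMGG42), a sterol reductase that acts on the side chain, had -0.33, -0.19 and -0.53 on day 1 and -3.80, -3.36 and -3.27 on day 3. The days were far apart, without overlap, and the difference was -3.13 (SE 0.18, adjusted p = 0.000157). A second clone of this enzyme under another annotation, STMEJ44, did not pass, at -0.29 (SE 0.15, adjusted p = 0.263). The Ghfe1-like clone STMCH16, given below with the responses that grew, shares a contig with STMGG42. The rhamnosyltransferase of beta-solanine and beta-chaconine (STMEH84), which adds the last sugar of the potato glycoalkaloids, had 0.39 and 0.70 on the 2 measured arrays of day 1 and -3.04, -3.19 and -2.89 on day 3. Both day 1 values were above 0 and all day 3 values far below it, and the difference was -3.51 (SE 0.21, adjusted p = 0.000247), fitted on 5 arrays because replicate 2 of day 1 had no value.

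Other steps of sterol synthesis fell by less. The delta-7-sterol-C5(6)-desaturase (STMEA40), which introduces a ring double bond, had -0.71, -0.04 and -0.55 on day 1 and -2.28, -1.98 and -1.96 on day 3. Its difference was -1.65 (SE 0.18, adjusted p = 0.00176). Squalene monooxygenase (STMEL05), the first oxygen-dependent step, had -0.54, -0.26 and -0.46 on day 1 and -1.86, -1.53 and -1.46 on day 3. All 3 clones annotated as 3-beta-hydroxysteroid isomerase fell, by 1.13 to 1.42, and in STMCQ53 the ratios went from 0.01, 0.22 and 0.29 to -1.37, -1.03 and -1.35. Both clones of delta(14)-sterol reductase fell, STMCS13 by 1.03 and STMFA04 by 0.86. Named after their values were seen, cyclopropyl isomerase (STMDP65) fell by 1.47 and obtusifoliol 14alpha-demethylase (STMEB65) by 1.13, the latter from a ratio already called on day 1. The 21 members without a call included the early mevalonate enzymes, with HMG-CoA synthase 2 (STMEP21) at 0.32 and HMG-CoA reductase 3 (STMEP23) at -0.33, and all 5 clones of one sterol-C-methyltransferase annotation (STMIP11 to STMEZ44), at -0.37 to 0.20.

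Deep late falls also included P450 oxygenases whose substrate the annotation does not give. Cytochrome P450 clone STMCG85 had 0.13, -0.45 and 0.19 on day 1 and -3.95, -3.30 and -3.05 on day 3. Another, STMGB09, had 0.32, -0.40 and 0.71 and -3.30, -3.19 and -2.56. Their differences were -3.39 (SE 0.27, adjusted p = 0.000387) and -3.23 (SE 0.24, adjusted p = 0.000326). The P450 list held 6 falls in 62 clones (9.68%, against 4.99% of all clones), all of late onset, and 2 rises. Its median difference was -0.12. A gamma tubulin clone (STMGM17), named for a protein that seeds microtubules, went from -0.25, -0.28 and 0.12 to -3.81, -3.71 and -3.13, a difference of -3.41 (SE 0.21, adjusted p = 0.000157). A RING-type zinc finger clone (STMDH35) fell late, with a difference of -1.96 (SE 0.15, adjusted p = 0.000326). STMDH53, the other clone of its annotation, did not pass, at -0.194. In the osmolyte list 5 of 27 clones fell (18.5%, against 4.99% of all clones) and 3 rose (11.1%, against 6.2%). Its median difference was 0.02. Of the fallers, arginine decarboxylase 1 (STMDE91), which starts a route to polyamines, and a betaine aldehyde dehydrogenase-like clone (STMIW95) fell late by 1.16 and 1.23. S-adenosylmethionine decarboxylase (STMIX62) rose by 1.045. For STMDE91 and STMIX62, no call was made without replicate 1 of day 1 (adjusted p = 0.0502 to 0.0815). The call of STMIW95 was lost without replicate 2 of day 1 or replicate 2 of day 3 (adjusted p = 0.0539 to 0.0566).

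**Figure D4:**
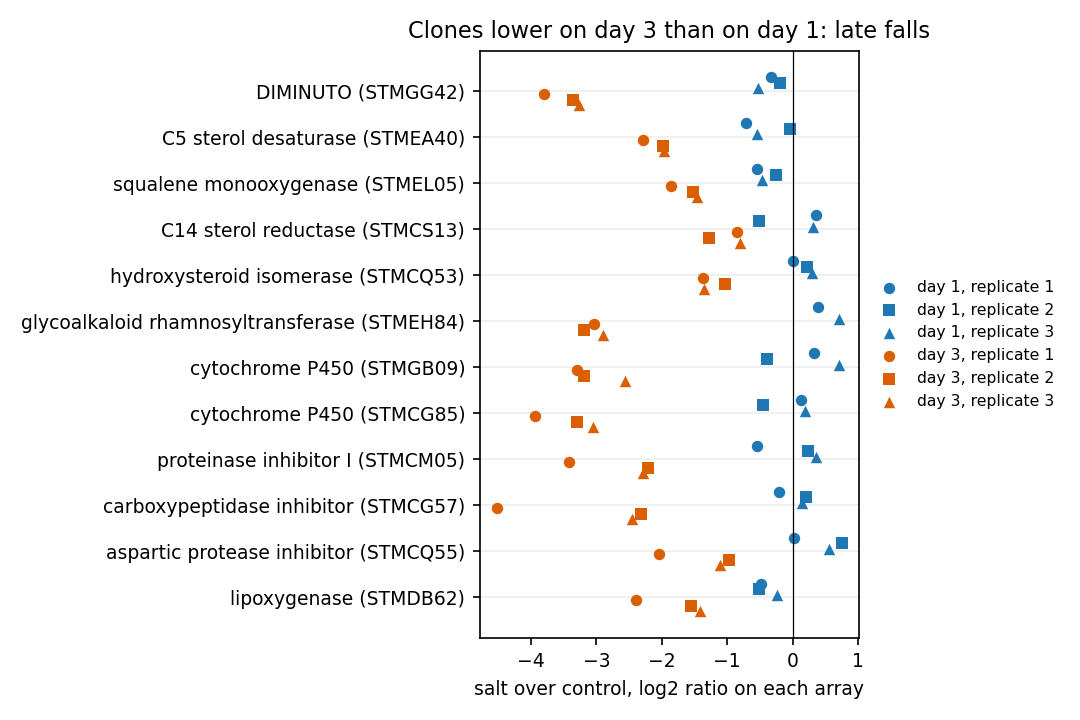
Log2 ratio of salt over control on each of the 6 arrays for 12 clones of sterol and glycoalkaloid synthesis, cytochrome P450, proteinase inhibitors and lipoxygenase, with day 1 in blue and day 3 in orange. Day 1 points sit between -0.71 and 0.75, and the day 3 points of every clone lie to their left, down to -4.52.

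Proteinase inhibitors, which block the digestive enzymes of insects, fell in 8 of 21 clones (38.1%, against 4.99% of all clones) and rose in 1 (4.76%, against 6.2%). Their median difference was -0.46. The list median moved with the arrays used, from -0.21 without replicate 1 of day 1 to -0.81 without replicate 1 of day 3 and -1.01 without replicate 2 of day 3. The array medians were -0.21, -0.09 and 0.08 on day 1, and -0.86, -0.61 and -0.94 on day 3. Proteinase inhibitor I (STMCM05) had -0.55, 0.24 and 0.36 on day 1 and -3.42, -2.21 and -2.29 on day 3. Its difference was -2.66 (SE 0.33, adjusted p = 0.0029), and all 3 clones of this annotation fell, by 1.92 to 2.66. A metallocarboxypeptidase inhibitor (STMCG57) had -0.21, 0.21 and 0.15 on day 1 and -4.52, -2.32 and -2.45 on day 3. Replicate 1 of day 3 was far the lowest of these, and the difference of -3.15 (SE 0.47, adjusted p = 0.0062) was -2.47 without that array. The other clone with this annotation, STMGH73, did not pass, at -0.147. Aspartic protease inhibitor 10 (STMCQ55) fell by 1.82 and proteinase inhibitor PPI3B2 (STMCO50) by 1.19. The single riser, chosen after its values were seen, was an ethylene-responsive proteinase inhibitor (STMIU33), at 0.77 (SE 0.17, adjusted p = 0.0245). Among the 12 members without a call, 2 clones of the type-2 inhibitor TR8 (STMCP16 and STMIY57) had day 3 ratios of -3.60 and -3.57 but differences that missed the threshold (adjusted p = 0.0535 and 0.137). STMCG57 missed the threshold without replicate 1 of day 1 (adjusted p = 0.0532).

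Some clones of wound signalling fell between the days as well. All 3 clones of 13-lipoxygenase, which starts jasmonate synthesis, fell, by 1.23 to 1.38. In STMDB62 the ratios were -0.48, -0.51 and -0.24 on day 1 and -2.396, -1.56 and -1.42 on day 3, a difference of -1.38 (SE 0.26, adjusted p = 0.0132). Fatty acid hydroperoxide lyase (STMCD19), which turns the same precursor into leaf aldehydes, fell by 0.94. The other clone of its annotation, STMEL50, did not pass, at -0.44. The oxylipin and jasmonate list had 4 falls (40%, against 4.99% of all clones) and no rise in 10 clones. Its median difference was -0.59, and -0.38 without replicate 1 of day 3. Its 12-oxophytodienoate reductase clones, of the later jasmonate pathway, did not pass (STMIL78 at 0.44 and STMJI52 at 0.46). Prosystemin (STMCL45), the precursor of the wound peptide systemin, went from 0.42, -0.07 and 0.32 to -0.79, -0.42 and -0.48, a difference of -0.78 (SE 0.19, adjusted p = 0.0331). Of the 5 polyphenol oxidase clones, named for enzymes that brown wounded tissue, propolyphenol oxidase (STMDB46) fell by 1.01 and STMIT72 rose by 1.06. Prosystemin and these oxidases come from a list put together after values were seen. In it 2 of 10 clones fell (20%, against 4.99% of all clones) and 1 rose (10%, against 6.2%). For STMDB62, STMDB46 and STMIT72, no call was made without replicate 1 of day 1 (adjusted p = 0.0556 to 0.0783). The call of STMCD19 was lost without replicate 2 of day 3 (adjusted p = 0.0506). STMCL45 missed the threshold without replicate 1 or 3 of day 1 (adjusted p = 0.113 to 0.142).

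Responses that were already present on day 1 and grew were mostly falls. A clone like Ghfe1 (STMCH16), a protein named for ovule and fibre cell elongation, had -0.58, -0.73 and -0.54 on day 1 and -4.87, -4.35 and -4.25 on day 3. This was the largest fall among the called clones annotated to a gene, at -3.87 (SE 0.20, adjusted p = 0.000149). STMCH16 shares a contig with the DIMINUTO clone STMGG42, so these clones need not be separate genes. A putative acid phosphatase (STMCI91), which releases phosphate, went from -0.82, -1.14 and -0.79 to -3.30, -3.57 and -3.45, and 2 of the 6 clones with this name fell. Chitin-binding lectin 1 (STMCQ19), a sugar-binding defence protein, had -2.37, -2.78 and -3.20 on day 1 and -6.62, -4.69 and -4.83 on day 3. Its difference of -2.60 (SE 0.45, adjusted p = 0.0101) was -1.99 without replicate 1 of day 3. Endochitinase 2 (STMIX82) fell by 1.44, while the other clone of its annotation, STMIU49, did not pass, at 0.63. The 3 clones of a gamma-aminobutyrate transaminase (among them STMCQ79), which degrades the amino acid GABA, fell by 1.01 to 1.37. Of the 4 rises in this class, one was pathogenesis-related protein 10 (STMDW19), from -0.07, 1.08 and 0.41 to 1.38, 1.60 and 1.25, a difference of 0.94 (SE 0.20, adjusted p = 0.0224). For STMCQ19, STMCQ79 and STMDW19, no call was made without replicate 1 of day 1 (adjusted p = 0.0502 to 0.0868).

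Late rises were few, and among the named clones those of ion transport were the largest. All 3 clones annotated CAX, a family of cation/proton exchangers that move calcium and other cations into the vacuole, rose by 1.92 to 3.39. Of these, 2 were late rises and 1 (STMII56) a reversal. STMII56 shares a contig with the late riser STMHE26, so these clones need not be separate genes. In STMHE26 the ratios were -0.70, -0.33 and -0.56 on day 1 and 3.73, 2.43 and 2.41 on day 3. They lay below 0 and then far above it, with a difference of 3.39 (SE 0.34, adjusted p = 0.0013). Replicate 1 of day 3 was the highest of the 3 arrays, and without it the difference was 2.92. Another exchanger clone, STMGL37, under another annotation, did not pass (difference 0.12). The cyclic nucleotide-gated ion channel 4 (STMIT24), from a family of calcium-permeable channels, had 0.38, 0.02 and 0.11 on day 1 and 2.15, 2.01 and 2.52 on day 3. All 3 later arrays were close together and far above the earlier ones, with a difference of 2.06 (SE 0.17, adjusted p = 0.00049). The other clone with this annotation, STMJD59, did not pass, at -0.016. Smaller late rises were a putative heat-shock protein (STMGS78, 0.96), a UDP-glucose:protein transglucosylase-like clone (STMDU65, 0.88) and a Rubisco activase clone (STMCF73, 0.83). The whole list of ion channels, exchangers and pumps had 4 rises in 37 clones (10.8%, against 6.2% of all clones). It had 2 falls (5.41%, against 4.99%), and its median difference was 0.08. The call of STMGS78, STMDU65 and STMCF73 was lost without replicate 1, 2 or 3 of day 1 or replicate 2 of day 3 (adjusted p = 0.0501 to 0.0987).

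Reversal from lowered to raised held, among named genes, clones of sulfate reduction, response regulators and others. Sulfate is activated by sulfate adenylyltransferase and reduced by adenylyl-sulfate reductase before it enters cysteine and glutathione. All 3 clones of the first and both of the second reversed. Both reductase clones share a contig, as do the adenylyltransferase clones STMER57 and STMHU37, so these 5 clones need not be 5 genes. Sulfate adenylyltransferase STMDV93 had -0.96, -0.95 and -0.84 on day 1 and 2.12, 1.20 and 1.28 on day 3. Adenylyl-sulfate reductase STMED18 had -0.88, -0.997 and -1.10 and 1.90, 0.96 and 1.01. Each of these values was negative on day 1 and positive on day 3, and the differences were 2.45 (SE 0.23, adjusted p = 0.00112) and 2.28 (SE 0.25, adjusted p = 0.00177). Over the 5 clones the differences ran from 1.68 to 2.45. The later sulfite reductase (STMCH27) and an adenylyl-sulfate kinase (STMHE82) did not pass, at 0.47 and 0.01. Without replicate 1 of day 3 the 5 clones still passed, and the median of this list of 7, chosen after values were seen, was 1.79 instead of 2.00. In the wider nitrogen and sulfur list, nitrite reductase (STMCG91), which reduces nitrite to ammonium in the chloroplast, recovered by 1.38 (SE 0.28, adjusted p = 0.0182). STMCG91 missed the threshold without replicate 1 or 3 of day 1 (adjusted p = 0.0559 to 0.0787).

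Type-A response regulators, which are induced by cytokinin and damp its signal in Arabidopsis, showed the same sign change. In STMGL50 the ratios went from -1.39, -0.90 and -1.27 to 1.79, 0.75 and 0.81, and in the ARR3-like clone STMII17 from -0.88, -0.93 and -0.81 to 1.52, 1.00 and 0.83. The differences were 2.30 (SE 0.29, adjusted p = 0.00331) and 1.99 (SE 0.20, adjusted p = 0.00131). A second clone with the annotation of STMGL50 rose by 2.19. The other 3 response regulator clones, of which 2 are pseudo-response regulators, had differences from -0.09 to 0.17. Among exchangers, CAX clone STMII56 reversed from -0.86, -0.58 and -0.53 to 2.10, 0.87 and 1.14.

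Other clones also reversed upwards. The secreted glycoprotein EP1 (STMDF40), named for the plant epidermis, had -1.78, -1.38 and -1.16 on day 1 and 0.83, 0.77 and 0.84 on day 3. Its 3 later values were nearly equal, and the difference was 2.25 (SE 0.19, adjusted p = 0.000571). Extensin (STMIA95), a structural wall glycoprotein, went from -0.36, -0.78 and -0.79 to 0.85, 1.36 and 0.78. A second extensin clone rose by 2.33, while 3 others with the same annotation did not pass. A homeobox-leucine zipper protein (STMJL63) and the tubulin beta-2 chain (STMHW42) reversed by 1.32 and 1.29.

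Reversal from raised to lowered held clones of unrelated annotation. An H/ACA ribonucleoprotein subunit (STMJM94), from a complex that modifies ribosomal RNA, had 0.53, 1.09 and 0.69 on day 1 and -2.37, -1.54 and -1.68 on day 3. A xanthine dehydrogenase-like clone (STMIX33), of purine breakdown, had 0.52, 1.21 and 0.94 and -1.95, -1.49 and -1.77. Their differences were -2.63 (SE 0.20, adjusted p = 0.000326) and -2.63 (SE 0.17, adjusted p = 0.000157), with every sign turned. A vacuolar ATP synthase subunit B (STMIY89), part of the pump that acidifies the vacuole, went from 0.49, 1.27 and 0.86 to -1.90, -1.34 and -1.56. A glyceraldehyde-3-phosphate dehydrogenase (STMIR25) fell by 2.48 and a putative DnaJ protein (STMIF70), a co-chaperone, by 2.42. The putative xyloglucanase inhibitor STMJF08, which acts on wall enzymes, fell by 1.56. STMHY32, the other clone of its annotation, did not pass, at -0.235.

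**Figure D5:**
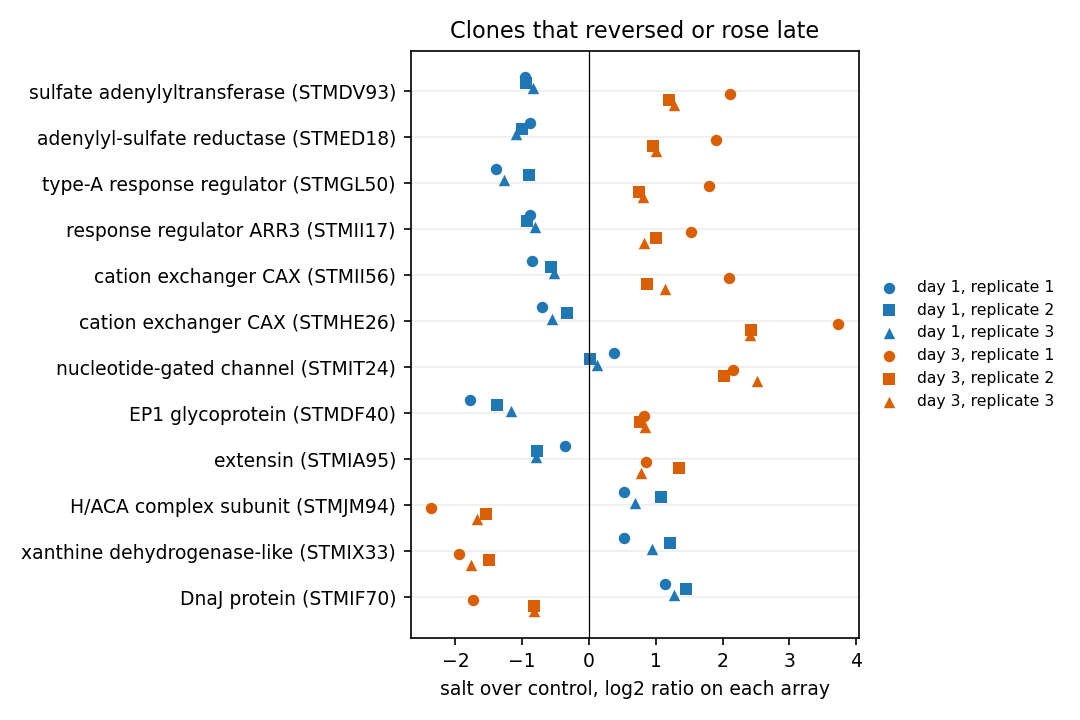
Log2 ratio of salt over control on each of the 6 arrays for 12 clones that reversed or rose late, with day 1 in blue and day 3 in orange and the line at 0 marking equal levels. From sulfate adenylyltransferase, between -0.96 and -0.84 on day 1 and between 1.20 and 2.12 on day 3, to extensin the day 3 points lie to the right, and in the lowest 3 clones they lie to the left.

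Several other lists had few calls or calls in both directions. Protein kinases and phosphatases had 7 rises and 5 falls in 160 clones (4.38% and 3.12%, against 6.2% and 4.99% of all clones). RNA binding and splicing had 7 and 7 in 114 (6.14% each). The starch and sucrose list had 1 call in 36, the fall of the invertase inhibitor above (2.78%, against 4.99% of all clones). Its words missed some enzymes of these pathways. Named after their values were seen, all 3 clones of the glucose-1-phosphate adenylyltransferase small subunit rose, by 1.05 to 1.27. Also outside the list, 1 of 3 pullulanase clones fell and 1 of 2 clones of glucose-1-phosphate uridylyltransferase rose. Aquaporins, the water channels, had 2 rises (14.3%, against 6.2% of all clones) and 2 falls (14.3%, against 4.99%) in 14 clones. NIP5.1 (STMIS78) stood at 1.04 and major intrinsic protein 2 (STMEQ06) at -0.92. A further NIP5.1 clone, STMJB02, did not pass, at -0.116. Genes often used as references were not free of change. Of 36 clones 3 rose (8.33%, against 6.2% of all clones) and 5 fell (13.9%, against 4.99%). In the ubiquitin C variant annotation, 5 of 15 clones fell and 1 (STMCL20) rose, by 0.95. For STMIS78, no call was made without replicate 1 of day 1 (adjusted p = 0.0721). The call of STMEQ06 was lost without replicate 2 or 3 of day 1 or replicate 2 of day 3 (adjusted p = 0.112 to 0.15). STMCL20 missed the threshold without replicate 1 or 2 of day 1 or replicate 2 of day 3 (adjusted p = 0.0542 to 0.075).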

How the data were processed

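Leaf RNA of salt and control plants was hybridized to 6 two-colour arrays, 3 biological replicates per day, so that p-values measure the spread between these replicates. Per the file headers, the authors deposited a log ratio per clone and array, with annotation, and the p-values of a one-sample test per day. These ratios (taken as log2) were used as deposited. Their scanner, background correction, normalization and filters were not given in the sources used here. The annotated table holds text where a value is missing, so the ratio columns of that deposited table, of no fixed unit, served only to match annotation to the numeric table, and all 10499 clones matched. Because the files hold ratios and no intensities, background correction and loess could not be applied.

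Each clone was fitted by least squares with a term for each day and a dye term, and limma 3.58.1 (R 4.3.3) gave the tests, with moderated variances and Benjamini-Hochberg adjustment over 9030 clones, at an adjusted p under 0.05. Fitted day values therefore differ slightly from raw means. Tables and figures were made in Python 3.11.15 using matplotlib 3.10.9, pandas 2.3.3 and NumPy 2.4.6. On simulated ratios of 9030 clones, the fit recovered 48% of 100 clones changed by 1 and 90% of 100 changed by 2, with 7 false calls among 145.

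Named clones, 1 per annotation, were the 12 largest non-overlapping differences per direction, the 6 largest per class and direction, and up to 4 members per list with the smallest p. The compared arrays, the named clones' rule and 47 gene lists, built from words in the annotation, were chosen with earlier results of these data known, and 5 of the lists after values of this comparison were seen. Clones of one annotation can be copies of a gene or close relatives that hybridize to each other: the 560 higher and 451 lower clones carry 340 and 265 distinct annotations. In the authors' deposited table, 564 of the called differences had a p under 0.05 on day 1 only, 150 on day 3 only, 118 on both days and 179 on neither. Replicate numbers gave no pairing by design. Alternatives covered the dye term, scaling, missing values, the replicate block, array weights, the variance model, single arrays left out, the threshold and the sign of the swapped arrays. No sequence of the clones was used here.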

Additional observations from a re-analysis of the deposited data

Results flagged for a closer look

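In 16 named clones the salt response took opposite signs on the days on every array. They were taken from the reversal class, which requires a called difference, so that each passed follows from the choice. From negative on day 1 to positive on day 3 went sulfate adenylyltransferase STMDV93 (difference 2.45), response regulator STMGL50 (2.30), adenylyl-sulfate reductase STMED18 (2.28), glycoprotein EP1 STMDF40 (2.25), CAX exchanger STMII56 (2.02), the ARR3-like clone STMII17 (1.99), extensin STMIA95 (1.64), homeobox-leucine zipper clone STMJL63 (1.32), tubulin beta-2 chain STMHW42 (1.29) and polyphenol oxidase STMIT72 (1.06). From positive to negative went H/ACA subunit STMJM94 (-2.63), xanthine dehydrogenase-like clone STMIX33 (-2.63), glyceraldehyde-3-phosphate dehydrogenase STMIR25 (-2.48), vacuolar ATP synthase subunit B STMIY89 (-2.47), DnaJ protein STMIF70 (-2.42) and xyloglucanase inhibitor STMJF08 (-1.56). The call of STMIT72 was lost without replicate 1 of day 1 (adjusted p = 0.0556). With 3 arrays per day, single arrays were not tested as outliers.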

How the results depend on the processing

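No called difference that could be tested changed its sign under any of the 15 refits, and between 291 and all 1011 of the calls kept their direction and their call. With all arrays, 560 clones were higher, 451 lower, 681 recovered, 156 of late onset and 38 reversed. Leaving out 1 array at a time gave 128 to 683 higher, 168 to 524 lower, 183 to 756 recovered, 54 to 162 of late onset and 8 to 61 reversed. With either replicate 2 array left out, the other also dropped out of the difference through the dye term. Array quality weights, which gave replicate 1 of day 3 a weight of 0.197, moved these counts to 1159, 1088, 1121, 415 and 238. Only replicates 1 and 3, with salt in Cy3, gave 224, 168, 263, 72 and 19. Scaling to equal spread gave 443 recovered, and quantile normalization 418 recovered and 243 of late onset. At an adjusted p under 0.1 there were 690 lower and 95 reversed. Counted once per annotation, 340 were higher and 265 lower. With the sign of replicate 2 turned on both days, limma called 0 higher and 0 lower, and 70 of 9030 clones had an unadjusted p under 0.05.

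Same-numbered arrays of the days deviated together with r of 0.046, 0.596 and 0.451. Among replicates 2 and 3, the pairs of unlike number had r of -0.521 and -0.501. Deviations from a day mean cancel over the arrays of that day, so these negative values are tied to the positive ones and are no separate observation. Replicate 1 of day 1 correlated best with replicate 3 of day 3 (0.198). Only replicate 2 had salt RNA in Cy5, so dye and replicate number cannot be told apart for it. The days used different plants, and why replicates 2 and 3 deviated together was not tested. A replicate block in place of the dye term gave 703 higher, 547 lower, 479 recovered, 235 of late onset and 21 reversed. Leaving out the dye term, keeping only clones on all arrays, own spreads per day and robust moderation moved none of these 5 counts by over 1.5 times. Among list medians, scaling turned the sign for proline and osmolytes (0.02 to -0.02 and -0.01) and cytoskeleton (0.01 to -0.01), and leaving out replicate 1 of day 3 turned it for those lists (to -0.01 and -0.05) and for heat shock proteins (-0.08 to 0.00), pathogenesis-related proteins (-0.11 to 0.06), chitinases (-0.08 to 0.01) and phenylpropanoids (-0.06 to 0.11). The cause was not tested for any of these shifts. With 3 arrays per day, small differences are beyond reach, and a clone without a call is not shown to be stable.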

Other observations

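Of the clones that reversed from raised to lowered, 8 had differences below -2.4. Of these, 5 are annotated to unrelated genes and 3 have no annotation. Their lowest and highest ratios were 0.27 and 1.13, 1.03 and 1.45, and 0.58 and 1.28 on the day 1 arrays. On the day 3 arrays they were -2.37 and -1.74, -1.61 and -0.83, and -1.78 and -0.83. Among them, vacuolar ATP synthase subunit B (STMIY89) and the unannotated STMET49 belong to the same contig. This group was picked after its values were seen, and whether its members share sequence was not tested.

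The deepest late falls were in 3 clones annotated only as hypothetical proteins (STMGI29, STMCL06 and STMCN85), named after their values were seen, with differences of -4.68, -4.58 and -4.43.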
